A study of Mus musculus with 4 samples.

Results

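The trimethylation of lysine 27 on histone H3 (H3K27me3) was mapped in E10.5 mouse forelimb buds on 2 of the 4 arrays of the series, the arrays titled H3K27me3 1 and H3K27me3 2. The other 2 arrays carried RING1B precipitates of the same tissue. The buds came whole from wild-type BDF1 embryos and were fixed for 20 min with 1% formaldehyde. An antibody against H3K27me3 was then applied to the chromatin of pooled buds. Precipitate and input DNA were amplified with T7 RNA polymerase and hybridised together in different dyes (chromatin immunoprecipitation on tiling arrays, ChIP-chip). Arrays 1 and 2 are a pair of probe designs of 1 set and not replicates. Every locus therefore had 1 measurement per antibody, no test across samples was possible, and an error given for a window is the SD over its 3 probes, which does not cover variation between embryos or precipitations. A bud holds mesenchyme, ectoderm and vessels, and a high level in part of the cells cannot be told apart from a lower level in all of them.

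H3K27me3 is set by the EZH1 and EZH2 enzymes of Polycomb repressive complex 2, and it marks genes that are held silent. Polycomb repressive complex 1, of which RING1B is the catalytic subunit, contains chromobox proteins that bind this mark, and RING1B itself ubiquitinates histone H2A. The mark typically covers CpG-rich promoters of developmental regulators, and over the Hox gene clusters it spreads into long blocks. In the limb, Hox genes of these clusters pattern the axes, and a cluster can lose the mark stepwise as its genes come on.

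All values are log2 ratios of Cy5 over Cy3 minus the median of the array. This opposes the labels, which put the precipitate in Cy3 and the input in Cy5. In the regions called for H3K27me3, described next, the Cy5 signal of the strongest window was higher than in the other regions by 4.09 on the log2 scale on array 1 and 3.73 on array 2. The Cy3 signal of the same windows differed by -0.09 and -0.31. These windows were chosen for a high ratio of Cy5 over Cy3, so a gap between the dyes was set by that choice. The choice did not set which dye held the gap, but probes dim in either dye had been left out, which limits low signals. Cy5 is read here as the precipitate, which was not tested. The labels state the opposite, and under the labelled dyes high values would stand for depletion.

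Array 1 carried 236872 probes on chromosomes 1 to 19, the lower-numbered autosomes and a part of chromosome 9, and array 2 carried 219178, on chromosome 9 to 19. Of these, 202613 (85.5%) and 181792 (82.9%) were well above background in both dyes and were kept. Kept probes stood a median of 188 bp apart in short tiled regions, and neighbouring probes of a region differed with an SD of 0.92 and 0.93. A window is the mean of 3 neighbouring probes, and the highest window of a region is its height. A region was called where its height passed the lowest threshold at which regions of the opposite sign were at most 5 per 100. That threshold was 2.85 (7.21-fold) on array 1 and 2.9 (7.46-fold) on array 2.

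H3K27me3 was strong and limited to a minority of the tiled regions. On array 1, 1703 of 10284 regions (16.6%) were called, and on array 2, 1315 of 9204 (14.3%), which gives 3018 of 19488 (15.5%) in all. With loess within each array, which removes trends of the ratio with signal, 169 and 1113 regions were called. In the labelled direction, Cy3 over Cy5, the same thresholds were passed by 75 regions (0.729%) on array 1 and 47 (0.511%) on array 2, 122 (0.626%) in all, a number that the rule for the threshold keeps low. At 8-fold the counts were 1634 (15.9%) against 31 (0.301%) on array 1, and 1274 (13.8%) against 25 (0.272%) on array 2. At 2-fold the order turned, with 3339 regions (32.5%) for Cy5 over Cy3 and 5611 (54.6%) for Cy3 over Cy5 on array 1, and 2484 (27%) and 5157 (56.0%) on array 2. Large ratios of kept probes thus lay almost wholly on the side of Cy5, and small ones did not.

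The heights fell into a large low group and a smaller high one. Over both arrays, 6687 regions had a height under 0, 6978 lay between 0 and 1, 1869 between 1 and 2, 1046 between 2 and 3, and 941 between 3 and 4. The count rose again to 1157 between 4 and 5 before it fell to 774 between 5 and 6 and to 36 at 6 or more. Of windows turned the other way, 56 regions reached 3 and 0 reached 4. Probes with dim Cy5 were left out of these windows, which favours high ratios. Without the filter on dim probes the same rule gave thresholds of 3.2 and 3.45. The median height of called regions was 4.59 on array 1 (quartiles 3.76 and 5.26) and 4.24 on array 2 (3.62 and 4.78). Regions not called had medians of 0.30 and 0.14.

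**Figure D1:**
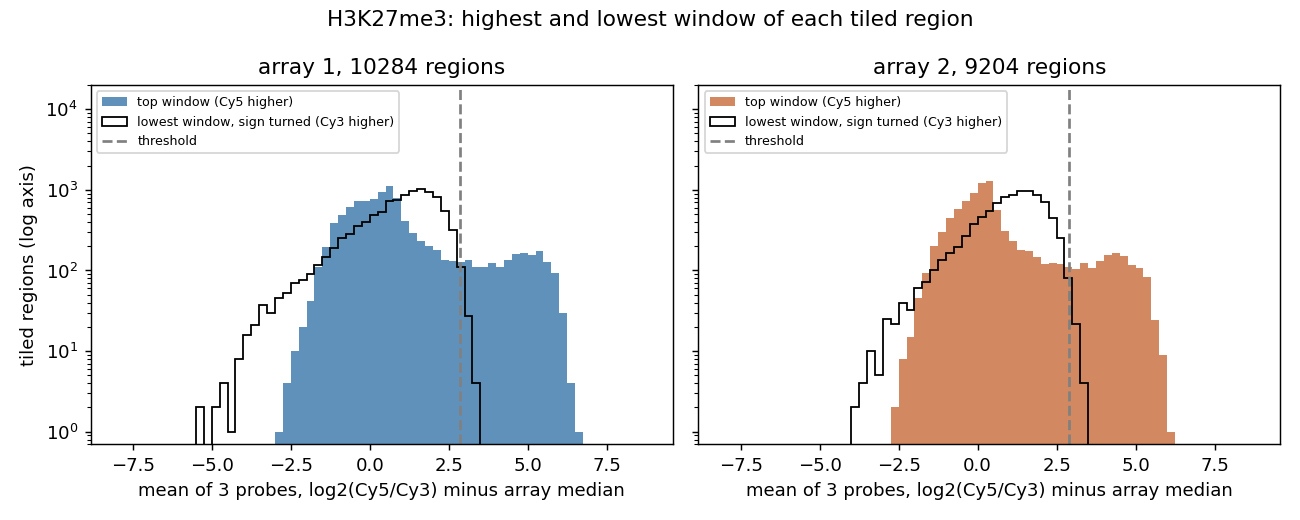
Distribution of the highest window of each tiled region (filled bars) and of its lowest window with the sign turned (black line), as log2 Cy5 over Cy3 minus the array median, for array 1 (left, 10284 regions) and array 2 (right, 9204 regions). The vertical axis is logarithmic and the dashed line is the threshold (2.85 and 2.9). A second group of regions lies at a height of 4 to 6, where no window of kept probes had the opposite sign.

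Regions just at the threshold show what separates a call from no call. On array 1, chr1:167597159-167602781 and chr2:60181597-60185709 were called at 2.85 ± 0.17 and 2.85 ± 0.31, each with a single window over the threshold out of 15. The nearest regions below, chr2:28878339-28885126 and chr7:68148335-68149730, stood at 2.85 ± 0.86 and 2.85 ± 0.62. On array 2 the nearest called regions were chr19:47189251-47197035 at 2.90 ± 0.46 and chr17:34986436-34989758 at 2.91 ± 0.56. Just below lay chr9:78396330-78403990 at 2.90 ± 0.37 and chr19:7330429-7338087, whose 2.90 ± 2.29 rested on probes that disagreed widely. These differences across the threshold are far smaller than the spread of the 3 probes, so membership at the margin is arbitrary.

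Neighbouring probes gave similar mean levels when they were separated. With the odd-numbered and the even-numbered kept probes of each region taken apart, the mean levels of the regions with at least 10 windows correlated with r = 0.987 on array 1 (6811 regions) and 0.982 on array 2 (6153 regions), and the SD of their difference was 0.25 and 0.26. Both probe sets share the hybridisation, and this is a description across regions. Of called regions with at least 10 windows, 1402 of 1630 (86.0%) on array 1 and 1040 of 1282 (81.1%) on array 2 passed the threshold with both probe sets, each taken alone. In 78 and 101 regions neither set passed it. The regions had been called with these same probes, so the counts are not independent of the calls.

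The called share rose with the length of the tile up to 9 kb. It was 1.76% of 3640 regions under 2 kb, 7.20% of 4444 regions of 2 to 4 kb, 16.6% of 4767 regions of 4 to 7 kb and 28.5% of 5668 regions of 7 to 9 kb, with 23.8% of 969 longer regions. By the number of kept windows, 1.32% were called at 1 to 4 windows, 2.00% at 5 to 9, 9.52% at 10 to 19, 20.8% at 20 to 29 and 45.8% at 30 or more. A region with more windows has more chances to pass, and fewer probes are kept where Cy5 is dim, so the number of kept windows is itself related to the ratio.

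The highest region of all was chr4:41909432-41922964, at 6.63 ± 0.79. Of its 63 windows, 82.5% were called, and the called stretch ran unbroken for 11.0 kb. Its Cy3 signal, at 8.83 on the log2 scale, was the lowest of the 10 highest regions of array 1, in which Cy3 otherwise lay between 9.81 and 11.3. RING1B reached 3.46 somewhere in that region, but only 1 of the 3 probes of the H3K27me3 summit was kept on the RING1B array. In chr2:145908065-145916007 the height was 6.47 ± 0.36, with the summit at the right end of the tile and RING1B at 5.98 ± 0.25 on the same probes.

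The next regions of array 1 differed in shape. In chr9:24522279-24529866 every window was called, the lowest at 3.74 and the highest at 6.42 ± 0.28, and RING1B was 6.74 ± 0.23. The region chr7:101690600-101694777 was also covered from end to end, at 6.41 ± 0.31 with RING1B at 4.85 ± 0.41. By contrast chr2:25394581-25407572 reached 6.18 ± 0.37 but had 47.7% of its windows called and fell to -1.58 elsewhere. The other 5 regions among the 10 highest of array 1 had heights of 6.17 to 6.28. Of the 10, 4 lay on chromosome 2, which held 1578 of the 10284 regions of array 1. RING1B was called in all 10, against 39.1% of all regions called for H3K27me3 on array 1. Of all regions on the RING1B arrays 7.35% were called.

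On array 2 the highest region was chr16:18498265-18505852 at 6.08 ± 0.70, with RING1B at 7.13 ± 0.69. It was followed by chr10:79750073-79761814 at 5.96 ± 0.50, chr16:20501940-20506213 at 5.94 ± 0.12 and chr17:87703968-87711092 at 5.90 ± 0.55. The remaining 6 of the 10 highest lay between 5.76 and 5.85. These heights were less often paired with full coverage: from 20.6% to 90.9% of windows were called in the 10 regions, whereas 3 of the 10 on array 1 were fully called. RING1B was called in all 10 regions here as well, against 55.1% of all regions called for H3K27me3 on array 2. It ranged from 2.59 ± 0.71 in chr19:5083017-5086061 to 7.13. The levels of the separate arrays were normalised apart, and their difference in height and coverage cannot be told apart from the difference in probe design.

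Breadth, the share of a region's windows over the threshold, varied from under 10% to all windows. Among called regions with at least 10 windows the median was 48.1% on array 1 (1630 regions, quartiles 24.6% and 73.1%) and 35.7% on array 2 (1282 regions, quartiles 17.9% and 58.1%). Complete coverage was found in 109 and 18 regions, and under 10% coverage in 147 and 172. The longest unbroken called stretch of a region had a median of 2.32 kb on array 1 and 1.71 kb on array 2, and reached 15.4 kb and 10.9 kb. Over both arrays 1353 of 2912 regions (46.5%) had 1 called stretch and 496 had 3 or more. Called stretches covered 5.88 of the 51.5 Mb tiled on array 1 (11.4%) and 3.80 of 47.4 Mb on array 2 (8.01%).

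Higher regions were broader. The median breadth was 9.38% at a height under 3.5, 25.9% from 3.5 to 4, 38.5% from 4 to 4.5, 53.1% from 4.5 to 5, 68.4% from 5 to 5.5 and 86.5% above that. Across regions the correlation of height with breadth was r = 0.787 on array 1 and 0.750 on array 2. Both measures use the same probes and threshold, so part of this relation is built in. A measure free of the threshold, the share of windows within 2-fold of the region's own summit, moved little, from 28.2% in the lowest height class to 31.9% at 5 to 5.5 and 35.7% in the highest. The lowest window of a region was also higher in taller regions, with a median of -0.07 in the lowest class and 1.91 in the highest.

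**Figure D2:**
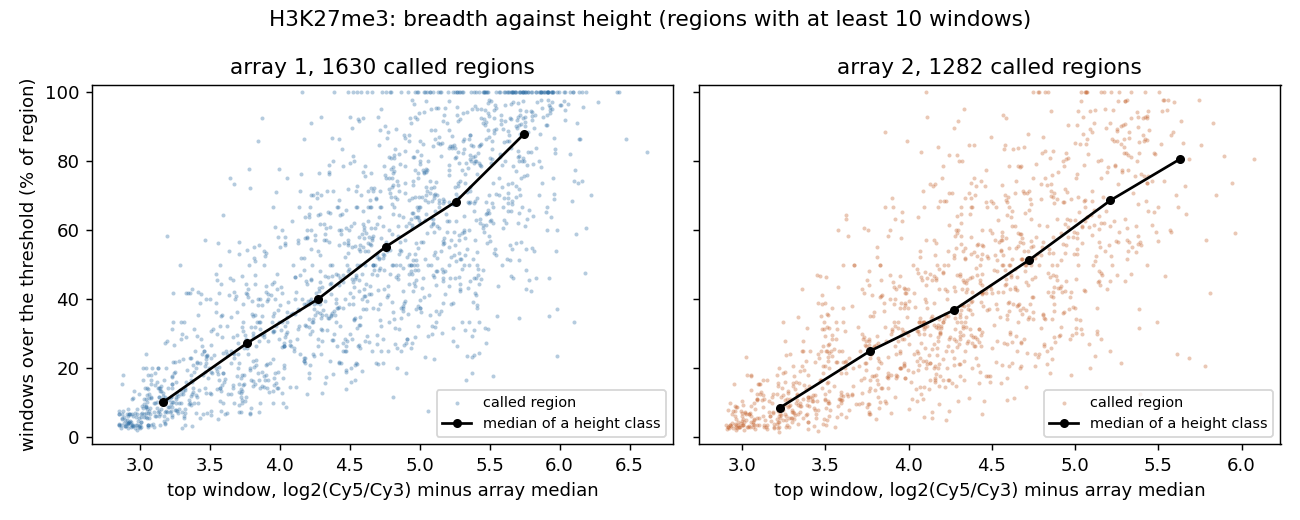
Breadth (percent of windows over the threshold, vertical) against height (highest window, log2 Cy5 over Cy3 minus the array median, horizontal) of called regions with at least 10 windows on array 1 (left, 1630) and array 2 (right, 1282). Each coloured point is a region and black points are medians of a height class. The medians climb from 10.2% to 87.9% on array 1 and from 8.54% to 80.5% on array 2, while single regions of 1 height differ widely in breadth.

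The broadest regions were plateaus that filled their tiles. Of 2406 called regions with at least 20 windows, 75 were fully called, 65 of them on array 1 and 10 on array 2. The highest mean level was that of chr5:67375987-67383725, at 5.30, where the 43 windows lay between 4.57 and 5.96. The region chr1:78077625-78085706 had a mean of 5.28 and windows from 4.48 to 6.04, and chr4:44729178-44737001 had a mean of 5.21 and windows from 4.51 to 6.16. In these 3 regions RING1B on the summit probes was 5.27 ± 0.34, 6.27 ± 0.42 and 5.80 ± 0.47. They were followed by chr7:49502435-49510204, chr2:121988453-121992794 and chr3:88296242-88303917, with means of 5.18, 5.15 and 5.14. On array 2 the highest such mean was 4.65, in chr10:19040644-19048405, with a lowest window of 3.12 and RING1B at 6.53 ± 0.27.

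At the same height, other regions had the mark on a small part of their tile. In all 6 regions named here the summit lay toward an end of the tile. The mark may go on beyond that end, so its full width is unknown. Among the 602 regions with at least 20 windows and a height of at least 5.11, the narrowest was chr5:117375803-117382448. Its summit of 5.33 ± 0.07 stood in a called stretch of 1.16 kb, 16.7% of the windows were called, and the rest of the tile fell to -1.35. In chr5:125148853-125156702 a summit of 5.52 ± 0.35 stood over a lowest window of -2.45, with a called stretch of 1.91 kb. In chr2:56928337-56936019 the summit was 5.38 ± 0.58 and the lowest window -2.74, so the ratio changed by over 8 on the log2 scale within one tile. The other 3 were chr19:54093065-54100923, chr12:82697542-82705513 and chr18:36469237-36477124, with 20.6% to 23.1% of windows called and summits of 5.27 to 5.78. RING1B was not called in the first of the 6 regions (2.43 on the 2 kept summit probes, 2.29 in its highest window of 3) and was called in the other 5, at 3.97 to 5.61.

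Tiles often ended inside the mark. Of 2912 called regions with at least 10 windows, 1292 (44.4%) had a called window at 1 end and 387 (13.3%) at both ends, which leaves 1233 (42.3%) whose called stretches ended within the tile. A called stretch that reaches the end of a tile may go on beyond it, so its length is a lower limit.

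Within tiles of 7 to 9 kb the mark had a dip at 1 to 2 kb from the centre of the tile. In the 914 called regions of this length on array 1, the mean window was 2.98 within 1 kb of the centre, 2.59 at 1 to 2 kb, 2.76 at 2 to 3 kb and 2.41 beyond. The 700 called regions of array 2 gave 2.63, 2.12, 2.39 and 2.20 in the same order. The share of called windows fell from 55.9% to 43.8% and returned to 52.5% on array 1, and on array 2 it fell from 45.4% to 30.3% and returned to 44.8%. In the regions not called the same place had the highest mean level, -0.23 and -0.28, against -0.39 and -0.41 at the centre. Over both arrays 23.6% of the summits of called regions lay within 1 kb of the centre, 16.5% at 1 to 2 kb, 42.2% at 2 to 3 kb and 17.7% beyond, although each of the first 3 bands held between 26.5% and 26.9% of the windows. Summits were thus few at 1 to 2 kb, but they were most frequent at 2 to 3 kb, where the mean level was not the highest. The files give neither strand nor start site, so both sides of the centre were pooled.

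In called regions the dip lay in the Cy5 signal on array 1, where the median log2 Cy5 of kept probes was 13.3, 12.9, 13.1 and 12.4 in the 4 bands while that of Cy3 stayed between 10.18 and 10.20. On array 2 Cy5 fell from 13.03 to 12.75 and Cy3 rose from 10.05 to 10.21 in the same step. RING1B dipped less at that place, from 1.29 to 1.24 on array 1 and from 1.71 to 1.61 on array 2. Between 93.7% and 95.6% of probes were kept in the bands of called regions. The part of probe sequence in this pattern was not tested.

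**Figure D3:**
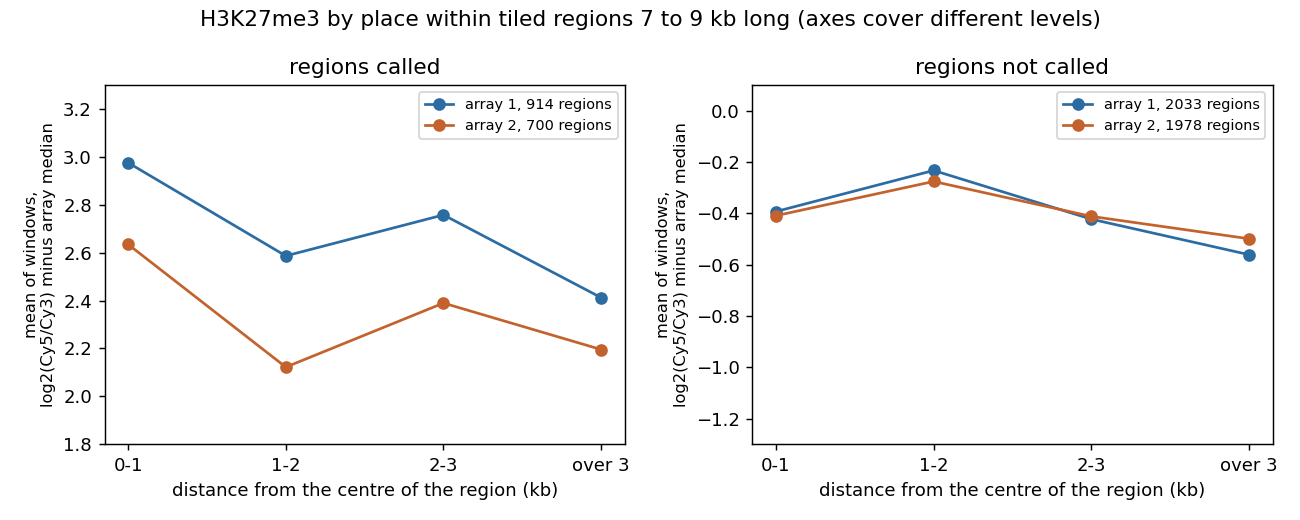
Mean H3K27me3 window (log2 Cy5 over Cy3 minus the array median) by distance from the centre of tiled regions 7 to 9 kb long, for called regions (left) and regions not called (right) on array 1 (blue) and array 2 (orange). The vertical axes cover different levels. In called regions the level is lower at 1 to 2 kb (2.59 and 2.12) than on either side, and in the others it is highest there (-0.23 and -0.28).

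The called share varied moderately between chromosomes. On array 1 it ranged from 12.4% (27 of 218 regions, on the part of chromosome 9) through 14.9% on chromosome 7 to 18.6% on chromosome 2 (293 of 1578). On array 2 it ranged from 11.1% on chromosome 16 (73 of 657) to 18.2% on chromosomes 12 and 15 (117 of 644 and 140 of 769). Chromosome 9, which both designs sampled, gave 12.4% on array 1 and 13.6% on array 2. Median heights of called regions ranged from 4.51 to 4.63 between chromosomes of array 1 and from 4.05 to 4.41 between those of array 2.

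At short gaps a tile was called more often after a called region than after a region not called. Where the next tile began within 5 kb, it was called in 24.8% of cases after a called region and in 7.69% after a region not called on array 1, and in 19.2% and 7.21% on array 2. At 5 to 20 kb the shares were 24.0% and 13.6% on array 1 and 24.2% and 10.7% on array 2. At 20 to 100 kb they were 25.4% and 15.3%, and 18.9% and 14.4%. At gaps of over 100 kb the shares were 27.9% and 25.6% on array 1 and 20.4% and 22.8% on array 2, so no such contrast was measured at that distance. Mainly the share after regions not called changed with the gap. Tile length, with which the called share rises, was not matched between gaps.

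Called windows with at most 20 kb between them were joined to domains, which gave 2789 domains with a median length of 3.52 kb (quartiles 1.77 and 5.17 kb). Of these, 2604 lay in a single tiled region, 185 joined 2 or more and 29 joined 3 or more. There were 136 domains of at least 10 kb, 64 of at least 20 kb and 4 of at least 50 kb. The 64 held 8.10% of the 39647 called windows and lay on 15 chromosomes. Most domains thus lay within 1 tile. Long ones were few, and tiles covered a median of 54.7% of the length of the 64, so the state of the gaps between tiles is unknown.

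The domain with the most called windows was chr15:102743943-102844504, which spanned 100.6 kb with 243 of 292 windows called (83.2%). Its probes had a mean of 3.93 ± 1.23 for H3K27me3 (SD over 306 probes) and 4.63 ± 1.24 for RING1B. The mark was even over the first 4 of its 7 tiles, with tile means of 4.34, 4.33, 4.09 and 4.35, and then declined to 3.54, 2.67 and 2.59. RING1B on the H3K27me3 summit probes followed, at 5.82 to 6.59 in the first 4 tiles and 5.04, 4.08 and 3.23 in the last 3. On the left the next domain was 769 kb away, and on the right 151 kb.

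The longest domain, chr6:52085480-52195944, spanned 110.5 kb and had 212 of 392 windows called (54.1%). It was the longest with these settings, and the domain on chromosome 15 was longer under others, such as the 8-fold threshold. With windows joined at 5 kb or 50 kb the longest domain was another, on chromosome 2. The mark in the domain on chromosome 6 climbed over its later tiles. The first tile reached 4.89 ± 0.12 but averaged 2.28, the next 3 averaged 1.69, 2.21 and 1.99, and 1 of them, chr6:52121861-52126759, was not called at all, with a summit of 2.57 ± 0.14. From there the tile means rose to 2.62, 3.58, 4.46 and 4.91, and the summit of the last tile was 5.80 ± 0.17. RING1B on the summit probes was 4.66 in the first tile and 3.38 and 2.65 in the next ones. It was lowest in the uncalled tile, at 2.63 ± 0.37. After that it was 3.77, 4.99 and 4.92, and 5.72 ± 0.30 in the last tile. Over the 407 probes with both values, H3K27me3 and RING1B correlated with r = 0.896, as a description of probes that share sequence and position. A further domain of 7.47 kb, chr6:52238006-52245478, followed after 42.1 kb at a mean of 4.70.

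The third domain, chr2:74457946-74501023, was the most densely covered of the 4 with most windows. Tiles covered 95.9% of its 43.1 kb, 195 of 204 windows were called (95.6%), and probe means were 4.34 ± 1.05 for H3K27me3 and 4.62 ± 1.25 for RING1B. The left tile held the summit, 6.28 ± 0.31, near its left end, together with RING1B at 7.01 ± 0.34. The right tile averaged 3.88, against 4.58 in the left one. Only 9 of 204 probes (4.41%) lay under 4-fold, and RING1B on these was 1.38 ± 0.30, against 4.78 ± 1.08 on the rest, so both antibodies were low on the same probes. The next domain began 22.5 kb to the right, chr2:74523536-74566077, with lower means of 2.89 for H3K27me3 and 1.89 for RING1B over 42.5 kb.

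A comparable slope was found in chr11:96076182-96134168, which spanned 58.0 kb with 98 of 158 windows called (62.0%). Its 3 tiles averaged 3.77, 2.96 and 2.17 from left to right, with summits of 5.19 ± 0.52, 4.87 ± 0.07 and 3.74 ± 0.23. RING1B on the H3K27me3 summit probes was, in the same order, 5.84 ± 0.39, 5.55 ± 0.43 and 4.97 ± 0.33. A domain of 28.8 kb, chr11:96154821-96183610, followed after 20.7 kb at a mean of 2.34. In the RefSeq gene table of GRCm38 the Hoxa, Hoxb, Hoxc and Hoxd clusters lie on chromosomes 6, 11, 15 and 2, which are the chromosomes of 4 of the 5 domains with the most called windows. Because the genome build behind the probe positions is unknown here, no domain was matched to a gene.

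The other domain among these 5, chr4:150958567-151024191, had H3K27me3 without a comparable level of RING1B. It spanned 65.6 kb over 6 tiles, 5 of them called, with 104 of 153 windows called (68.0%) and summits of 4.41 to 5.86 in the first 4 tiles. The H3K27me3 mean was 3.40 ± 1.46, while RING1B averaged 1.13 ± 1.02. Single RING1B probes passed 2.7, the RING1B threshold for windows of 3 probes, in 8.33% of 156 cases. On the H3K27me3 summit probes of tiles 2 to 4 from the left RING1B was higher, at 3.52 ± 1.07, 3.28 ± 0.50 and 3.65 ± 0.67.

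**Figure D4:**
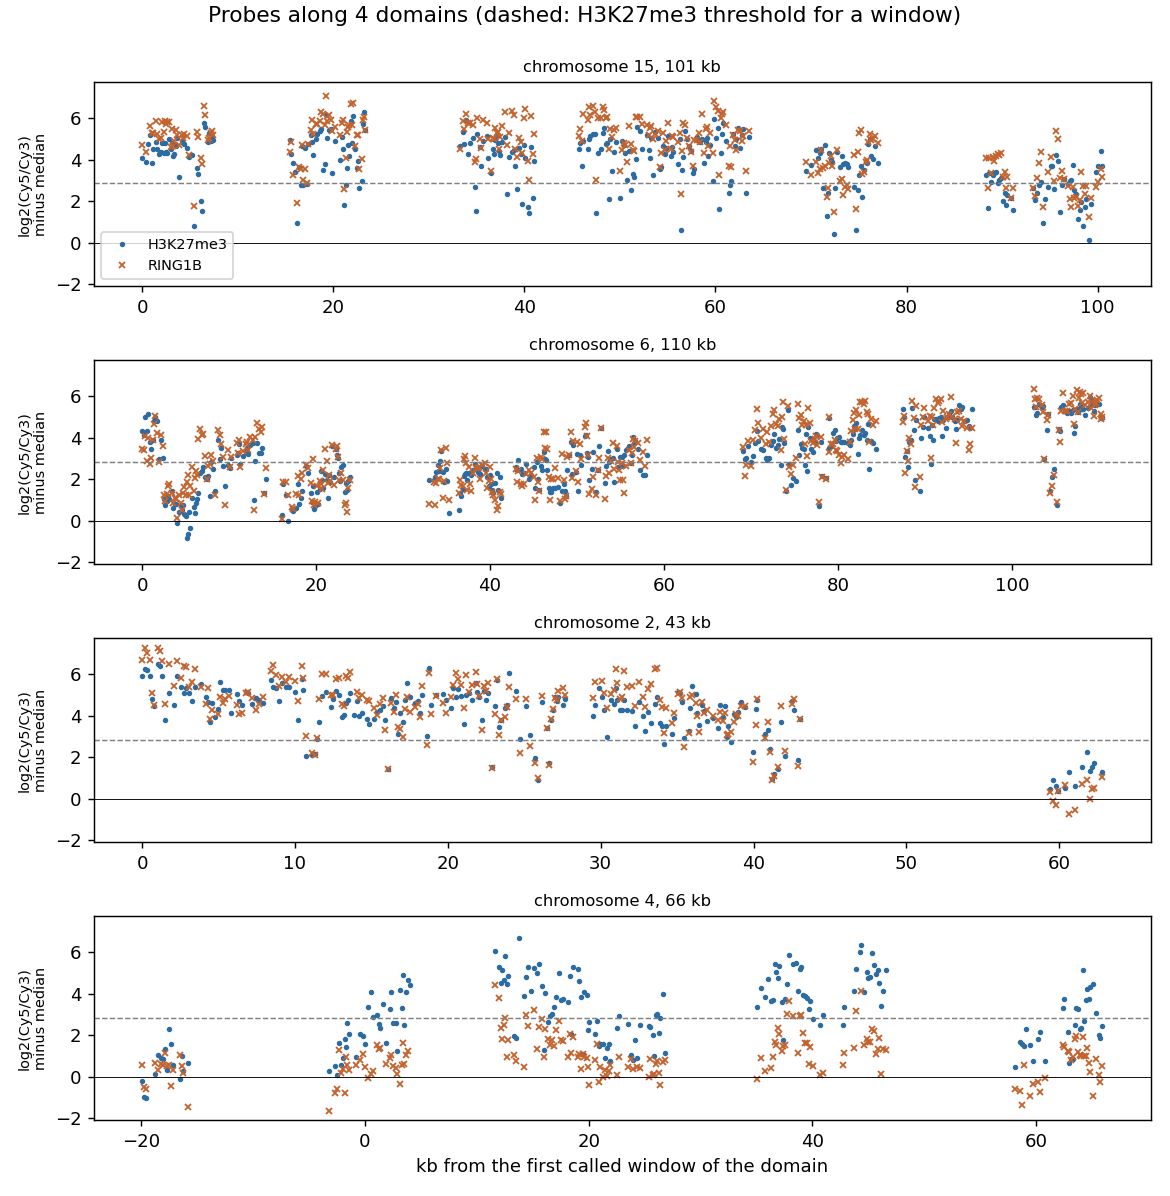
H3K27me3 (blue points) and RING1B (orange crosses) of single kept probes, as log2 Cy5 over Cy3 minus the array median, by distance in kb from the first called window, along the 4 domains with the most called windows (from the top: chromosomes 15, 6, 2 and 4). The dashed line is the H3K27me3 threshold, gaps have no probes, and probes within 20 kb of a domain are shown. The RING1B mean of the probes within the domain is above that of H3K27me3 in the upper 3 domains (4.63, 3.26 and 4.62 against 3.93, 3.03 and 4.34), where single stretches run either way, and below it on chromosome 4 (1.13 against 3.40).

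The remaining 5 of the 10 domains with most called windows were of both kinds. In chr3:129186703-129208623 (21.9 kb) all 76 windows of its 2 tiles were called, at a mean of 4.90 ± 0.78 with RING1B at 5.11 ± 1.05. In chr2:105464323-105479744 all 75 windows of a single tile of 15.4 kb were called, at 5.12 ± 0.75 with RING1B at 4.99 ± 0.88. The domain chr2:18586887-18619330 had 3.89 ± 1.52 and RING1B at 4.53 ± 1.51. In chr1:74816308-74838230, a single tile of 21.9 kb with 94 called windows, H3K27me3 was 4.11 ± 1.20 and RING1B 1.53 ± 1.48. In chr8:108146832-108180351 the values were 4.18 ± 1.53 and 1.96 ± 1.18. By length, the 4 domains over 50 kb were followed by chr1:74681129-74727714 (46.6 kb) and chr4:132749699-132792986 (43.3 kb), with H3K27me3 at 3.22 and 3.42 and RING1B at 1.07 and 0.91.

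Long domains as a group did not have high RING1B. Of the 64 domains of at least 20 kb, 9 had a RING1B probe mean of at least 2.7, and 27 had a mean under 1, which is under 2-fold. The median of the 64 was 1.23, and they ranged from 0.09 to 5.11. For comparison, the median was 1.56 in the 2604 domains that lay in a single tiled region. A domain mean takes all probes of the span, also those in windows not called. The 9 were the domains named above on chromosomes 15, 6, 11 and 3, those named above at chr2:74457946-74501023 and chr2:18586887-18619330, and chr2:71325124-71353053 (3.96 ± 1.54), chr14:121584147-121613165 (3.81 ± 1.60) and chr4:114404364-114429178 (2.94 ± 1.55). At the other end, RING1B was 0.09 ± 0.74 in chr1:93175945-93197668, 0.14 ± 1.05 in chr2:25063096-25087364 and 0.27 ± 0.69 in chr2:25216660-25252750. H3K27me3 was 1.47 ± 1.60, 1.04 ± 2.29 and 2.98 ± 1.44 in the same order. Of their windows 20.4%, 34.3% and 61.7% were called, which was 71 windows in the last. The domains with high and with low RING1B also differed in H3K27me3, with a median of 3.93 in the 9 and 2.50 in the 27. By length class, the median RING1B mean was 1.09 under 1 kb, 1.38 at 1 to 2 kb and 1.47 at 2 to 5 kb. It was 2.39 at 5 to 10 kb, 1.41 at 10 to 20 kb, 1.14 at 20 to 50 kb and 3.59 in the 4 domains above 50 kb. From 5 kb on, the median H3K27me3 mean was 3.86, 3.35, 3.10 and 3.32 in the same classes.

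Over single regions, RING1B went with the height of the mark. On the 3 probes of the H3K27me3 summit the median RING1B was 2.26 in called regions (quartiles 1.25 and 3.52) and 0.15 in regions not called. With normexp background correction for both antibodies the first median was 0.99 and the second 0.07. RING1B passed its own threshold in 1389 of 3016 called regions with a RING1B value (46.1%) and in 39 of 16046 others (0.243%), against 7.35% of all regions on the RING1B arrays. In 193 called regions (6.40%) RING1B did not reach 2-fold in any window. The median rose with H3K27me3 height from 1.09 under 3.5, through 1.55, 2.15, 2.7 and 3.41, to 4.58 at 5.5 and above. The antibodies were hybridised separately, but probe sequence is shared, and whether they shared an input is not stated.

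Within a band of heights, RING1B was highest in the broadest regions. Among regions with a height of 4.5 to 5.5, the median RING1B was 2.22 (22 regions), 2.38 (169), 2.32 (247) and 2.82 (196) in the 4 breadth classes of array 1, in steps of 25 percentage points. On array 2 it was 3.20 (24 regions), 3.5 (130), 3.91 (179) and 5.08 (121). RING1B was called in 27.3% of the narrowest and 62.2% of the broadest class on array 1, and in 75% and 92.6% on array 2. The median height itself rose over these classes, from 4.82 to 5.14 and from 4.73 to 5.16. By height alone, from 4.5 to 5 and from 5 to 5.5, the median RING1B was 2.14 and 2.84 on array 1. On array 2 it was 3.46 and 4.71.

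**Figure D5:**
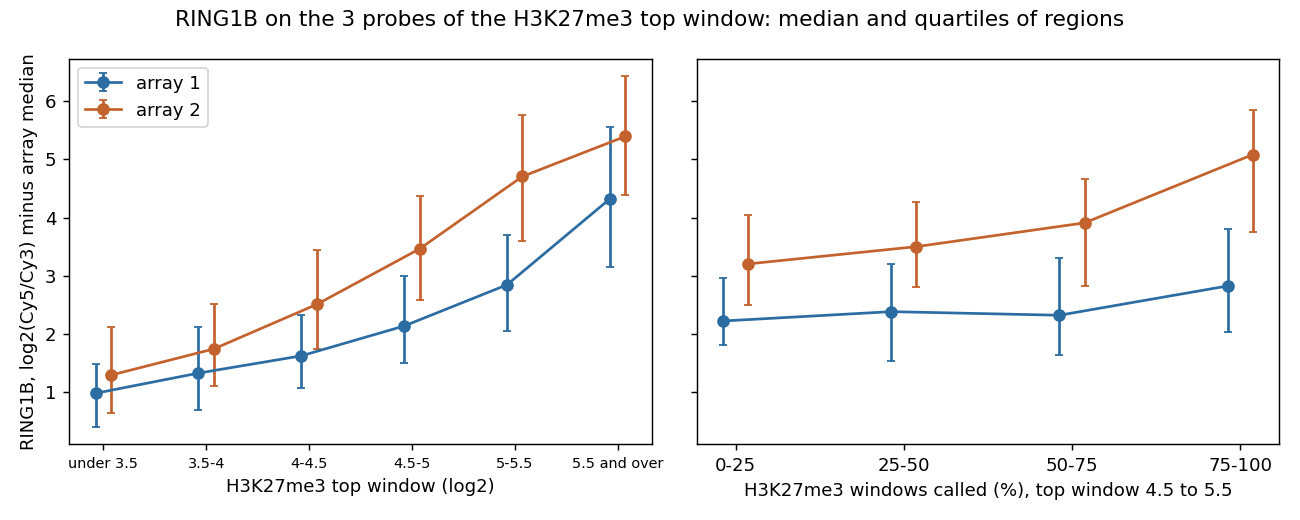
Median RING1B (log2 Cy5 over Cy3 minus the array median, on the 3 probes of the H3K27me3 summit) with quartiles as bars, by H3K27me3 height class (left) and, for heights of 4.5 to 5.5, by the share of windows called (right), on array 1 (blue) and array 2 (orange). RING1B climbs with height from 0.98 to 4.32 on array 1 and from 1.29 to 5.39 on array 2. Over the breadth classes it is 2.22, 2.38, 2.32 and 2.82 on array 1 and climbs from 3.20 to 5.08 on array 2. The median height rises over the breadth classes as well.

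Where both antibodies were called in a region with at least 10 windows, H3K27me3 covered more of it. In 1369 such regions the median share of called windows was 58.8% for H3K27me3 and 26.9% for RING1B, and H3K27me3 was the broader in 1059 (77.4%), RING1B in 256. On array 1 the medians were 69.6% and 23.1%, and on array 2 they were 50% and 29.7%. Each share depends on the threshold of its own array, which was 2.85 or 2.9 for H3K27me3 and 2.7 for RING1B.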

How the data were processed

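Scanning output came from Agilent Feature Extraction 10.1.1.1, per the file headers. The deposited processed signals are intensity values, background-subtracted, detrended and linearly dye-normalised by that program. The deposited value tables are log2 ratios of Cy5 over Cy3, not centred (medians -0.16 and 0.018), and 100% of their values lay within 0.001 of the scanner ratios. Per the labels' protocols, DNA had been amplified, which can compress or distort ratios. The build and any peak caller of the authors are not given in the sources used here.

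Log2 ratios of processed signals were centred on the median of kept probes, from which control spots, outlier-flagged spots and probes too dim in either dye (not well above background) were left out. The filter removes dim Cy5 and so favours high ratios. Probes with starts at most 1000 bp apart formed regions, and 19488 regions with at least 3 kept neighbouring probes on chromosomes 1 to 19 entered. Windows held 3 probes, and domains joined called windows at most 20 kb apart. RING1B needed 2 kept probes of a window. Python 3.11.15, pandas 2.3.3 and limma 3.58.1 were used, and the code was tested on simulated plateaus. The precision is limited by 1 array per probe.

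Named were the 10 highest regions per array, the 10 domains with most windows and 6 longest, the 6 broadest (by called share, then mean) and 6 narrowest high regions, and 2 regions on each side of each threshold. The fully called region of array 2 with the highest mean was added later. The domains listed with high or low RING1B were chosen after their values were seen. Members and rules were chosen with earlier results of these data known. Gene lists, cell type markers and GC content were not analysed here, because the files name no genes or sequences.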

Additional observations from a re-analysis of the deposited data

How the results depend on the processing

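No paired analysis was possible because each probe was measured on 1 array per antibody, and numbers 1 and 2 are different probe designs. The number of called regions (3018), the median breadth (42.4%), the number of domains (2789) and their median length (3.52 kb) stayed within 1.5-fold under normexp (on median signals with an offset of 50), the deposited table, both changes to the dim filter, kept outliers, no saturated spots, centring on the mode, windows of 5 probes, medians of 3, and thresholds of 4-fold and 8-fold. Called regions then ranged from 2669 to 3954. Apart from the fixed thresholds, the threshold was found anew by the same rule in each setting. It was 1.4 on array 1 and 0.65 on array 2 with normexp, and 3.2 and 3.45 without the dim filter. The counts thus do not refer to 1 common ratio. Loess gave 1282 regions, of which 169 were on array 1, a breadth of 16.7%, 1217 domains and a median of 1.97 kb. A threshold at the top 10% of regions gave 1950, 22.4%, 1846 and 2.31 kb by its construction. In the labelled direction at the same thresholds there were 122 regions, a breadth of 6.90%, 122 domains, a median of 0.578 kb and a longest of 9.30 kb, and the rule of 5 per 100 reached no threshold of its own. The longest domain (110.5 kb) was 43.1 kb, on chromosome 2, with windows joined at 5 kb, and 252.7 kb, also on chromosome 2 (25000037 to 25252750), at 50 kb, so domain lengths depend on the joining distance. The domain on chromosome 15 was the longest with an 8-fold or top 10% threshold, centring on the mode, medians of 3, either change to the dim filter, loess, and odd-numbered probes. Region gaps of 500 and 2000 bp gave 3758 and 2918 called regions. The median RING1B in called regions (2.26) became 0.99 with normexp for both antibodies, 2.35 with loess and 2.52 as the highest window. The cause of the loess and normexp values was not tested. Odd-numbered and even-numbered probes alone, added after seeing the data, called 2886 and 2908 regions. Cy5 medians of 98.5 and 126 over local backgrounds of 42 and 42.5 limit low ratios.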
